A study of Mus musculus with 34 samples.

Results

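The T cell receptor complex and its co-receptors were followed across mouse small cell lung cancer tumors through 9 genes. These are among the 29745 genes of the tumor count table and were chosen by name, with earlier results of these data known. They are the CD3 chains Cd3d, Cd3e and Cd3g, the zeta chain Cd247, and the co-receptors Cd4, Cd8a and Cd8b1. The accessory receptors Cd2 and Cd5 complete the set. RNA was sequenced from 18 flank tumors grown from the line RP-48OVA-LLO190 in immunocompetent mice and treated for 16 d with vehicle (n = 5), with BOM (bomedemstat, an inhibitor of the histone demethylase LSD1; n = 4), with the checkpoint antibody anti-PD1 (n = 5), or with BOM and anti-PD1 together (n = 4). As a background without a host, 10 libraries came from RP-48OVA-LLO190 cells kept in culture for 10 d. Of these, 3 received DMSO, 2 received BOM, 3 had IFNg added to DMSO and 2 had IFNg added to BOM, with IFNg present for the last 48 h. A further 6 came from the lines RP-116, RP-48 and G8545 cultured for 96 h with DMSO or BOM, with 1 library per line and treatment. Every tumor came from 1 line, the labels name no mouse strain, sex or dose, and no label says that tumors of an arm came from separate mice, so the tests measure the spread between these samples.

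T cells recognise peptides held by MHC molecules through a receptor whose antigen-binding chains have almost no cytoplasmic part of their own. The signal is passed inward by the CD3 chains and the zeta chain, which carry the phosphorylated motifs that recruit the kinase ZAP-70. CD4 binds MHC class II and CD8 binds MHC class I, and both bring the kinase LCK to the receptor. In solid tumors these transcripts are commonly read as a sign of infiltrating T cells.

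On the mouse build mm10, Cd3g (chr9:44969572-44980431, minus strand), Cd3d (chr9:44981786-44987339, plus strand) and Cd3e (chr9:44998740-45009627, minus strand) lie side by side, and the starts of Cd3g and Cd3d are 1355 bases apart on opposite strands. Cd8b1 (chr6:71322788-71337494, plus strand) and Cd8a (chr6:71373427-71379173, plus strand) are neighbours separated by 35933 bases. Cd4 (chr6:124864692-124888221, minus strand) lies elsewhere on the same chromosome. Cd247 (chr1:165788681-165877277, plus strand), Cd2 (chr3:101275899-101287939, minus strand) and Cd5 (chr19:10717116-10739002, minus strand) are on chromosomes of their own. Cd247 overlaps Pou2f1 on the opposite strand and Cd3e overlaps an antisense gene, Gm48719. The library kit does not mark the strand, so reads in those overlaps cannot be assigned with certainty.

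The promoters of the divergent pair Cd3d and Cd3g, and of 2 of the members whose levels differed most between arms, Cd247 and Cd8a, are shown. The RefSeq table for GRCm38.p6 matched 6 of the 9 members (Cd3d, Cd3e, Cd3g, Cd247, Cd8a and Cd5) and gives 250 bases before and 50 after each start. Capitals mark matches, on either strand, to AGGAAG (the ETS family) and CTTTGA (TCF1 and LEF1), and to CAGCTG (an E-box) and AGATAA (the letters read by GATA factors). No match overlapped another.
Cd3d: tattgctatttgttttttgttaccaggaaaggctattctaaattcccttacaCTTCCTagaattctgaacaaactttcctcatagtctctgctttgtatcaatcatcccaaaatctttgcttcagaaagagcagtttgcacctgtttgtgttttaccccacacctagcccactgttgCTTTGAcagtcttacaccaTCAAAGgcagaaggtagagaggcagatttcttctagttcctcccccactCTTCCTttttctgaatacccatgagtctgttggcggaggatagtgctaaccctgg
Cd3g: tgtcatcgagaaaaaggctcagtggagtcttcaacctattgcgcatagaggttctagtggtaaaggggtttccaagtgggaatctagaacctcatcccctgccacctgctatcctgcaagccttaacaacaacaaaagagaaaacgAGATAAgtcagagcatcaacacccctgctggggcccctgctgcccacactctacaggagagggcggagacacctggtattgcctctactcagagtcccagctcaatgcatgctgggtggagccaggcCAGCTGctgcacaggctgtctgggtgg
Cd247: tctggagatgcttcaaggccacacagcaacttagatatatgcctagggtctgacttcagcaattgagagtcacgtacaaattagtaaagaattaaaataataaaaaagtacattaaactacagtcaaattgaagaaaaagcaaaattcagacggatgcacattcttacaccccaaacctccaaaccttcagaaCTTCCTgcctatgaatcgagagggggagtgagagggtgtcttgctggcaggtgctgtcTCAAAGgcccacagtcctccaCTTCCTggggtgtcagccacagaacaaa
Cd8a: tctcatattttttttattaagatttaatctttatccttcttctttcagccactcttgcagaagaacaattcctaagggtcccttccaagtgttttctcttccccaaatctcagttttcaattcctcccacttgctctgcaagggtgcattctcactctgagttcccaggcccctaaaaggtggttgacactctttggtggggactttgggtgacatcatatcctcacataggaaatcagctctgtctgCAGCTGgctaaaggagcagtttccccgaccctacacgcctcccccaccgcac
The ETS letters were in 4 of the 6 members' windows and in 35.4% of all 32851 windows of that length in the table. The TCF1 and LEF1 letters were in 2 (Cd3d and Cd247), against 16% of all windows. The E-box was in 2 (Cd3g and Cd8a; 16.3% of all windows) and the GATA letters in 1 (Cd3g; 11.2%). The RUNX letters TGTGGT (16.8% of all windows) and the TATA box letters TATAAA (13.6%) were in none of the 6. These matches describe the letters only.

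Counts in the tumors were low. Totals ran from 5.64 to 82.2 M counts per tumor (M stands for 1000000), with vehicle tumor 1 at 82.2 M, vehicle tumor 2 at 13.2 M and no other above 8.36 M. A single count in the shallowest tumor was worth 0.177 CPM (counts divided by the library total in M), and outside vehicle tumor 1 no member had more than 85 counts in a tumor. Small cell lung cancer markers were high in every tumor (8 neuroendocrine genes summed to 2651 to 3427 CPM), and skeletal muscle genes, at most 163 CPM elsewhere, summed to 1094 CPM in BOM tumor 2. All 9 members passed the filter on low counts, which kept 14332 genes.

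The combination arm had the highest mean CPM for each of the 9 genes. The anti-PD1 arm had the lowest mean for 8 of them and the BOM arm for the other, Cd3g. Summed over the members, the combination tumors held 37.4, 16.7, 21.6 and 32.2 CPM, and the anti-PD1 tumors 18.9, 12.2, 5.10, 2.29 and 8.44 CPM. The vehicle tumors held 29.2, 20.1, 6.38, 12.3 and 5.09 CPM and the BOM tumors 8.23, 8.52, 32.2 and 12.8 CPM. Every arm's range overlapped every other's. Of the 18 tumors, 12 were above the highest 10 d culture library in this sum (8.48 CPM). In bulk tumor RNA, fewer T cells, less receptor RNA per T cell and RNA of these genes from other cells cannot be told apart.

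**Figure D1:**
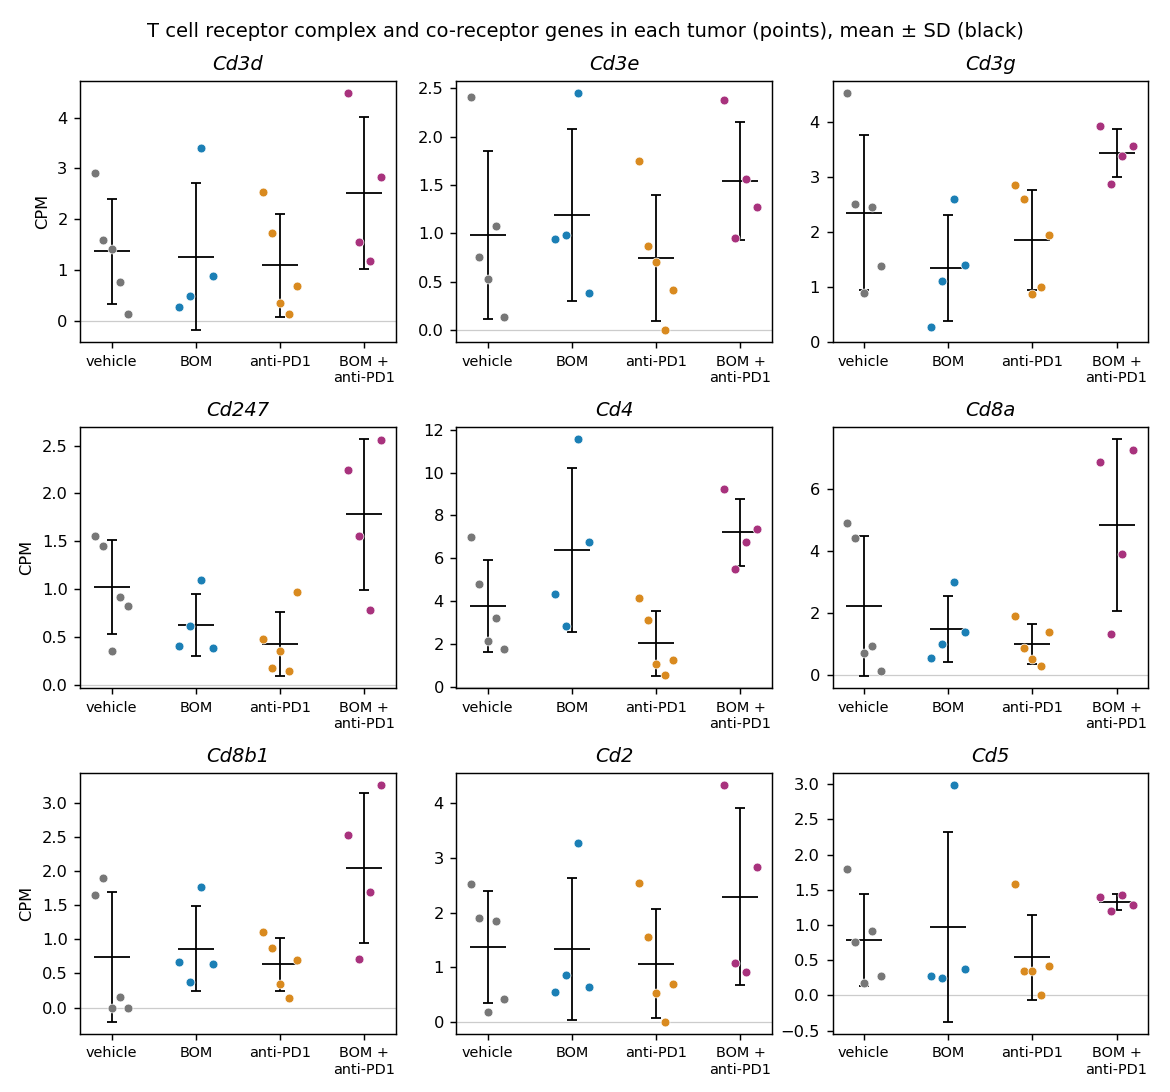
CPM of the 9 genes in each of the 18 tumors (points, left to right by tumor number within an arm), with the arm mean ± SD in black and a separate linear axis for each gene. The combination arm has the highest mean in all 9 panels, and single tumors such as BOM tumor 3 stand far from the rest of their arm.

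Combination against anti-PD1 tumors shows what BOM added to the checkpoint antibody, and it is the comparison in which members were called. Of the 9, 3 were higher with the combination (Cd247, Cd4 and Cd8a) and 0 lower, where 15.8% of all genes tested were called higher and 16.6% lower. Calls rest on edgeR's quasi-likelihood test at a Benjamini-Hochberg adjusted p under 0.05 over 14332 genes. The 9 log2 differences were all above 0, with a median of 1.27 beside -0.01 over all genes. The median was 1.95 without anti-PD1 tumor 1 and 0.94 without anti-PD1 tumor 4. The groups did not overlap for 2 members, Cd4 and Cd3g, both higher, as for 13.3% of all genes.

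The CD3 chains, which form the signalling core around the antigen-binding chains, were not among the called genes. Cd3g was the most abundant of them in CPM, at 3.93, 2.87, 3.38 and 3.55 in the combination tumors and 2.86, 2.60, 0.880, 1.0 and 1.94 in the anti-PD1 tumors. It measured 0.270, 1.11, 2.59 and 1.40 CPM in the BOM tumors and 4.53, 2.51, 0.887, 2.45 and 1.37 CPM with vehicle. All combination tumors were thus above all anti-PD1 and all BOM tumors, whereas the vehicle range enclosed them. The fitted log2 difference was 0.86 ± 0.48 (SE) from anti-PD1 (adjusted p = 0.184) and 1.36 ± 0.52 from BOM (adjusted p = 0.578). Of all genes tested, 2.26% lay fully above the BOM tumors in the same way.

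Cd3d reached 4.49, 1.56, 1.17 and 2.84 CPM in the combination tumors, against 2.54, 1.74, 0.352, 0.143 and 0.692 CPM with anti-PD1. With vehicle it was at 2.91, 1.60, 1.42, 0.766 and 0.137 CPM and with BOM at 0.270, 0.494, 3.41 and 0.890 CPM. The arms overlapped throughout, and both BOM tumor 3 and vehicle tumor 1 exceeded 3 of the 4 combination tumors. Against anti-PD1 the fitted log2 difference was 1.18 ± 0.76 (adjusted p = 0.253). Cd3e, the chain most used to mark T cells, was lower, at 2.38, 0.957, 1.56 and 1.28 CPM with the combination and 1.75, 0.868, 0.704, 0 and 0.415 CPM with anti-PD1. The 0 in anti-PD1 tumor 4 allows up to 0.430 CPM (3 counts, counting error only). The log2 difference of Cd3e was 1.04 ± 0.72 (adjusted p = 0.289), and its vehicle mean of 0.982 ± 0.867 CPM (SD, n = 5) and BOM mean of 1.19 ± 0.885 CPM (n = 4) lay between those.

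Cd247, the zeta chain that carries most of the receptor's signalling motifs, was higher with the combination than with anti-PD1 alone. It measured 2.24, 1.56, 0.779 and 2.56 CPM in the combination tumors and 0.476, 0.174, 0.352, 0.143 and 0.968 CPM in the anti-PD1 tumors. The groups overlapped by 1 tumor on each side, combination tumor 3 and anti-PD1 tumor 5. The anti-PD1 values rest on 1 to 7 counts each. The log2 difference was 1.98 ± 0.53 (edgeR quasi-likelihood test, adjusted p = 0.00816), and it passed the test when each tumor was left out in turn (adjusted p 0.00304 to 0.0274). Vehicle tumors held 1.56, 1.44, 0.355, 0.920 and 0.825 CPM and BOM tumors 0.405, 0.617, 1.09 and 0.381 CPM, all between the extremes of the other arms, and the difference between combination and vehicle was 0.65 ± 0.44 (adjusted p = 0.378).

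Cd4, the co-receptor of helper and regulatory T cells, was the most abundant member in CPM in each arm, and also when divided by gene length except with anti-PD1. It also rose in the combination against anti-PD1: 9.26, 5.50, 6.75 and 7.38 CPM against 4.13, 3.13, 1.06, 0.573 and 1.25 CPM. The lowest combination tumor was above the highest anti-PD1 tumor. The log2 difference was 1.82 ± 0.51 (adjusted p = 0.0116; 0.00409 to 0.0327 with each tumor left out in turn). With BOM alone Cd4 was at 4.32, 2.84, 11.6 and 6.74 CPM, and the combination differed from BOM by 0.19 ± 0.50 on the log2 scale (adjusted p = 0.955). Vehicle tumors held 6.99, 4.79, 2.13, 3.22 and 1.79 CPM and overlapped both BOM-containing arms.

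Cd8a, which encodes the alpha chain present in both forms of CD8, had the largest fitted difference. Combination tumors held 6.87, 1.32, 3.89 and 7.24 CPM and anti-PD1 tumors 1.91, 0.868, 0.528, 0.287 and 1.38 CPM. Of the combination tumors, 3 were above every anti-PD1 tumor and combination tumor 2 was within their range. The log2 difference of 2.23 ± 0.75 passed the test (adjusted p = 0.0302). Without combination tumor 1 or 4 it did not (adjusted p = 0.0761 and 0.0774), nor without anti-PD1 tumor 2, 3 or 4 (adjusted p = 0.0535, 0.0607 and 0.0684). Vehicle tumors split widely for this gene, at 4.89, 4.41, 0.709, 0.920 and 0.137 CPM, and BOM tumors held 0.539, 0.988, 3.0 and 1.40 CPM.

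Cd8b1 encodes the beta chain that pairs with CD8 alpha on conventional cytotoxic T cells. It followed Cd8a at a lower CPM, with 2.52, 0.718, 1.69 and 3.27 CPM in the combination tumors and 1.11, 0.868, 0.352, 0.143 and 0.692 CPM in the anti-PD1 tumors. The log2 difference of 1.65 ± 0.80 did not pass the test (adjusted p = 0.124). BOM tumors held 0.674, 0.370, 1.77 and 0.636 CPM. With vehicle, tumors 1, 2 and 4 held 1.64, 1.90 and 0.153 CPM and tumors 3 and 5 were at 0, which allows up to 0.532 and 0.412 CPM in those libraries.

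Of the accessory receptors, Cd2, which binds CD48 and stabilises contacts with other cells, measured 4.35, 1.08, 0.909 and 2.84 CPM with the combination and 2.54, 1.56, 0.528, 0 and 0.692 CPM with anti-PD1. These overlapped (log2 difference 1.08 ± 0.78, adjusted p = 0.306). Cd5, which dampens receptor signalling, had closely spaced values in the combination tumors, 1.40, 1.20, 1.43 and 1.28 CPM. Its anti-PD1 values were 1.59, 0.347, 0.352, 0 and 0.415 CPM, so anti-PD1 tumor 1 was above all 4 (log2 difference 1.27 ± 0.82, adjusted p = 0.253). With BOM, Cd5 was at 0.270, 0.247, 3.0 and 0.381 CPM, and with vehicle at 1.80, 0.760, 0.177, 0.920 and 0.275 CPM.

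Against vehicle, no member was called in any arm. For the combination, 0 of 9 passed (0 at an unadjusted p under 0.05; 10.7% of all genes were called by edgeR), although the 9 differences were all above 0, from 0.40 (Cd3e) to 1.09 (Cd8b1), with a median of 0.65. For BOM alone, 0 of 9 passed (0 at an unadjusted p under 0.05; 14.5% of all genes called), with differences from -0.92 (Cd3g) to 0.66 (Cd4) and a median of -0.22. For anti-PD1 alone, 0 of 9 passed and 0% of all genes did, with 1 member at an unadjusted p under 0.05 (Cd247, -1.33 ± 0.51, edgeR adjusted p = 0.391). The 9 anti-PD1 differences were all below 0, with a median of -0.63. Without vehicle tumor 1 the median was -0.055 and 3 were above 0. These 3 comparisons share the 5 vehicle tumors, and DESeq2 also called 0 members in each.

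The vehicle level rested strongly on the 2 deepest tumor libraries, vehicle tumors 1 and 2, which were also the vehicle tumors with the highest summed member CPM. With both left out, an alternative chosen after seeing the data that lowers the vehicle level by its construction, 3 members were called higher in the combination than in vehicle. In that fit 12.3% of all genes were called higher. The 3 members were Cd4 (1.59, adjusted p = 0.0412), Cd8a (3.02, adjusted p = 0.00701) and Cd8b1 (4.88, adjusted p = 0.00169), the last resting on 1 count in the remaining 3 vehicle tumors together. Leaving out vehicle tumor 1 alone called none and moved the median difference from 0.65 to 1.23. Thinning vehicle tumor 1 to the median depth of the others, 7.23 M counts, also called none, with a median of 0.71. Without vehicle tumors 1 and 2, 7 of the 9 anti-PD1 differences from vehicle were above 0, with a median of 0.36, and none was called.

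Adding anti-PD1 to BOM gave differences above 0 for all 9 members, from 0.19 (Cd4) to 1.70 (Cd8a), with a median of 1.0. None passed the test after adjustment, and 0.00698% of all genes (1 gene) did. At an unadjusted p under 0.05 there were 3 members, Cd247 (1.51 ± 0.52, edgeR adjusted p = 0.557), Cd3g (edgeR adjusted p = 0.578) and Cd8a (edgeR adjusted p = 0.631), and DESeq2 called 0. The interaction, which asks whether the combination differs from the sum of both single treatments, was above 0 for all 9, with a median of 1.48, and called for 0, as for 0% of all genes. Its largest values were 2.99 ± 1.05 for Cd8a (adjusted p = 0.462) and 2.83 ± 0.73 for Cd247 (adjusted p = 0.393), 3 members had an unadjusted p under 0.05, and DESeq2 called 0. BOM tumor 3 decided much of the size: without it, the median was 1.86 for combination against BOM and 2.39 for the interaction, and that for BOM against vehicle was -1.23. Other tumors lowered the medians: combination against BOM was at 0.57 without combination tumor 1, and the interaction was at 0.91 without vehicle tumor 1 and 0.43 without vehicle tumors 1 and 2. Without vehicle tumor 1 the median for BOM against vehicle was 0.29. BOM and anti-PD1 tumors were not tested against each other.

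**Figure D2:**
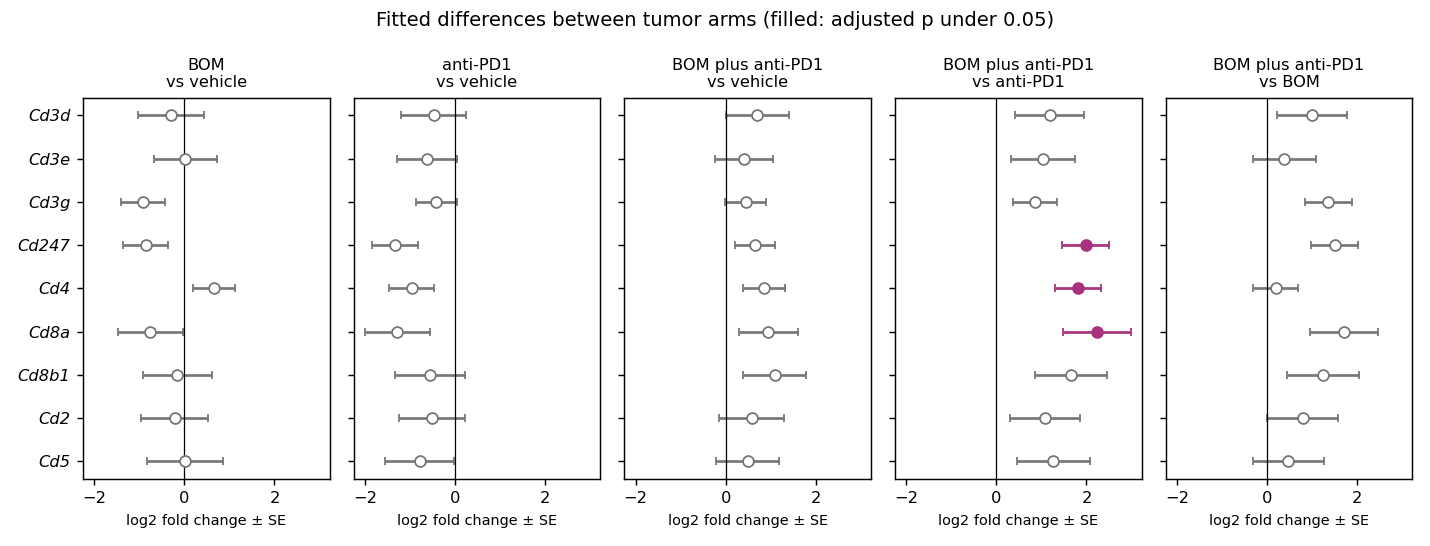
Fitted log2 fold changes ± SE of the 9 genes in the 5 comparisons of tumor arms, from 1 fit over 18 tumors, with filled points where the adjusted p was under 0.05. Only Cd247, Cd4 and Cd8a in the combination against anti-PD1 are filled, and in that panel all 9 points lie above 0.

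Compared per kilobase of gene length, Cd4 led in the combination (1.79 CPM per kb), BOM (1.58) and vehicle arms (0.938). With anti-PD1, Cd2 (0.611), Cd3d (0.602), Cd3g (0.568) and Cd4 (0.502 CPM per kb) were close and within their SDs of 0.276 to 0.573. Cd5 and Cd247 held the 2 lowest places in each arm, at 0.269 and 0.335 CPM per kb in the combination and 0.11 and 0.0793 with anti-PD1. The combination means of Cd3d (1.38), Cd8b1 (1.38), Cd8a (1.33), Cd2 (1.32) and Cd3g (1.05 CPM per kb) did not differ beyond their spread.

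Within an arm, the same tumors tended to be high for all members. BOM tumor 3 was the highest of its arm for 9 of 9, anti-PD1 tumor 1 for 8 and vehicle tumor 1 for 8, with vehicle tumor 2 highest for Cd8b1. Anti-PD1 tumor 4 was the lowest of its arm for 8. In the combination arm tumor 1 was highest for 5, tumor 4 for 3 and tumor 3 for 1. The spread between tumors of an arm was wide: the biological coefficient of variation ran from 0.379 (Cd247) to 0.755 (Cd2), beside a median of 0.125 over all genes. The members are also among the genes with the lowest counts, where this value tends to be larger (mean log2 CPM from -0.29 for Cd5 to 1.94 for Cd4).

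**Figure D3:**
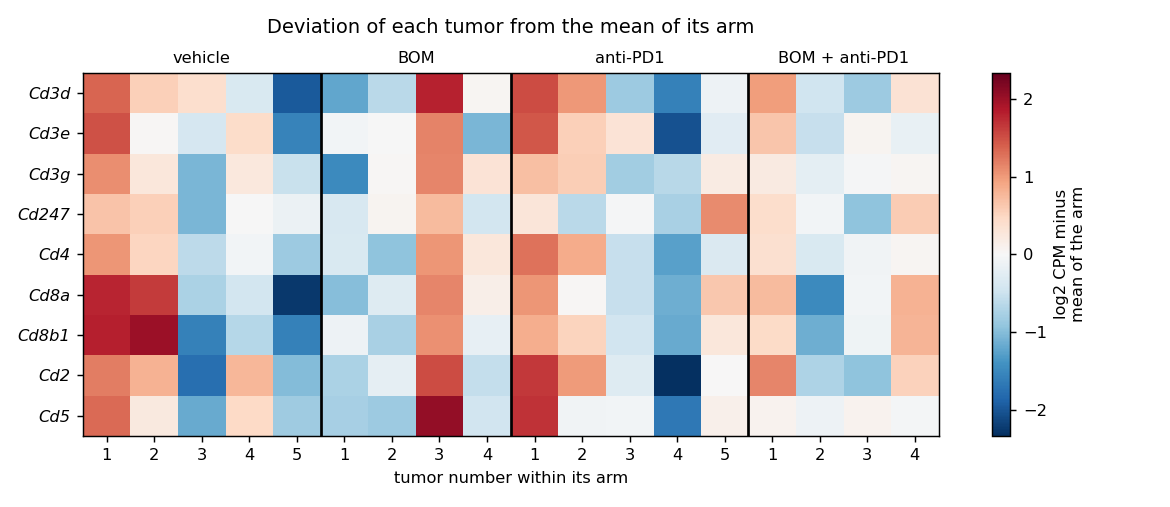
Log2 CPM (prior count 2) of each gene in each tumor minus the mean of its arm, so that differences between arms are removed; red is above and blue below the arm mean. Columns such as BOM tumor 3, vehicle tumor 1 and anti-PD1 tumor 1 are red for nearly all genes, and anti-PD1 tumor 4 is blue for all 9.

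After the arm means were removed, the 36 pairs of members had Pearson correlations of 0.41 to 0.92 across 18 tumors, with a median of 0.75. The highest was between the 2 CD8 chains, Cd8a and Cd8b1 (0.92), and the divergent neighbours Cd3d and Cd3g were at 0.75. The lowest was between Cd247 and Cd4 (0.41), and Cd247 was also in the next lowest pairs. The points share library depth, and without vehicle tumors 1 and 2 the range was 0.26 to 0.86 (median 0.73, 16 tumors). These are descriptions, with no test.

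The genes whose pattern across the 18 tumors was most like the mean of the members, again after removal of the arm means, were Parvg (Pearson correlation 0.97), Nkg7 (0.96), Havcr2 (0.95), Il2rb (0.94) and Dnase1l3 (0.93). Next came Uba7, AU020206, Iigp1 and Rasal3, each at 0.93, and H2-Aa at 0.92. Nkg7 is a cytotoxic granule protein of T and natural killer cells, Havcr2 encodes the inhibitory receptor TIM-3, Il2rb a chain of the interleukin-2 receptor, and H2-Aa an MHC class II chain. The ranking took genes whose mean log2 CPM reached 0 or more and left out the members and predicted genes (names with Gm and a number, or with Rik). Of the 13152 genes ranked, 1.5% had a correlation above 0.8. Without vehicle tumors 1 and 2, Parvg was at 0.97 and H2-Aa at 0.90.

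Markers of other cells varied across the same tumors. The called markers below stand beside 15.8% of all genes called higher and 16.6% called lower in the combination against anti-PD1. In either direction, 14.5% were called for BOM against vehicle and 0.00698% for the combination against BOM. The 8 macrophage markers, led by C1qb and all detected, summed to 285 to 1006 CPM with vehicle, 325 to 732 with BOM, 156 to 654 with anti-PD1 and 383 to 750 with the combination. The 4 tumors with the highest macrophage sums were vehicle tumor 1, combination tumor 1, BOM tumor 3 and anti-PD1 tumor 1. Against anti-PD1, 1 of the 8 macrophage genes was called higher in the combination (Cd14, 1.89 ± 0.39, adjusted p = 0.00138), and the list's median difference was 0.64. The 8 dendritic cell markers summed to 54.0 to 106 CPM with vehicle, 75.6 to 102 with BOM, 46.7 to 81.1 with anti-PD1 and 72.3 to 107 with the combination, but their leading gene, Zbtb46, was at 50.2 to 68.3 CPM in the 10 d cultures. Zbtb46 was also the 1 gene of the list called higher in the combination than with anti-PD1 (0.85 ± 0.14, adjusted p = 0.000218). The 7 natural killer cell markers, none at 0 throughout an arm, summed to at most 7.01 CPM, in combination tumor 1, and 0 of the 7 passed the filter. The 8 B cell markers summed to 3.71 to 12.0 CPM over all tumors. Of the 3 tested, 1 was called lower in the combination than with anti-PD1, and 2 had differences above 0 (list median 0.40). The 7 fibroblast markers, led by Col1a2, summed to 554 to 1249 CPM with vehicle, 455 to 1768 with BOM, 247 to 2012 with anti-PD1 and 340 to 600 with the combination. Their median difference was -0.96 from anti-PD1, with 6 of 7 below 0 and 1 called higher (Pdgfra, 1.05 ± 0.32, adjusted p = 0.0179), and -1.04 from BOM, with 7 of 7 below 0 and 0 called. Of the 8 neuroendocrine markers, 4 were lower in the combination than with anti-PD1 (Syp, Dll3, Nkx2-1 and Uchl1; list median -0.41), and 5 were lower and 2 higher with BOM than with vehicle. The part of these cells in the differences of Cd4 and the other members was not tested.

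Before any count is added, the ratio of Cd8a to Cd4 counts in a tumor does not scale with its library size. The 0.5 added to each count draws the ratio toward equality where counts are low. As log2 values with 0.5 added to each count, the mean was -1.40 ± 1.19 (SD, n = 5) with vehicle, -2.12 ± 0.58 (n = 4) with BOM, -0.89 ± 0.68 (n = 5) with anti-PD1 and -0.81 ± 0.86 (n = 4) with the combination. BOM tumors had the lowest mean. On the linear scale they ran from 0.138 to 0.362, combination tumors from 0.247 to 0.981 and vehicle tumors from 0.111 to 0.921, so that the lowest single tumor was vehicle tumor 5. The difference of 1.30 between those arms did not pass an exact two-sided permutation test (p = 0.0857, adjusted p = 0.257 over 15 tests; the smallest p that 4 against 4 allows is 0.0286). Cd8a exceeded Cd4 in 1 tumor of the 18, anti-PD1 tumor 5, with 10 against 9 counts.

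The ratio of Cd8b1 to Cd8a had a log2 mean of -1.93 ± 0.77 (n = 5) with vehicle and -0.58 ± 0.36 (n = 5) with anti-PD1. The groups did not overlap, and the exact permutation p of 0.00794, the smallest that 5 against 5 allows, came to 0.119 after adjustment over 15 tests. Vehicle tumors 3, 4 and 5 rest on 0, 1 and 0 counts of Cd8b1, and anti-PD1 tumors on 1 to 7. The ratio was -0.70 ± 0.70 (n = 4) with BOM and -1.14 ± 0.25 (n = 4) with the combination. The ratio of Cd247 to Cd3e had means of 0.34 ± 1.16 with vehicle, -0.71 ± 0.53 with BOM, -0.35 ± 1.60 with anti-PD1 and 0.15 ± 0.85 with the combination. Its lowest exact permutation p was 0.127 (adjusted p = 0.306). None of the 15 tests passed after adjustment.

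**Figure D4:**
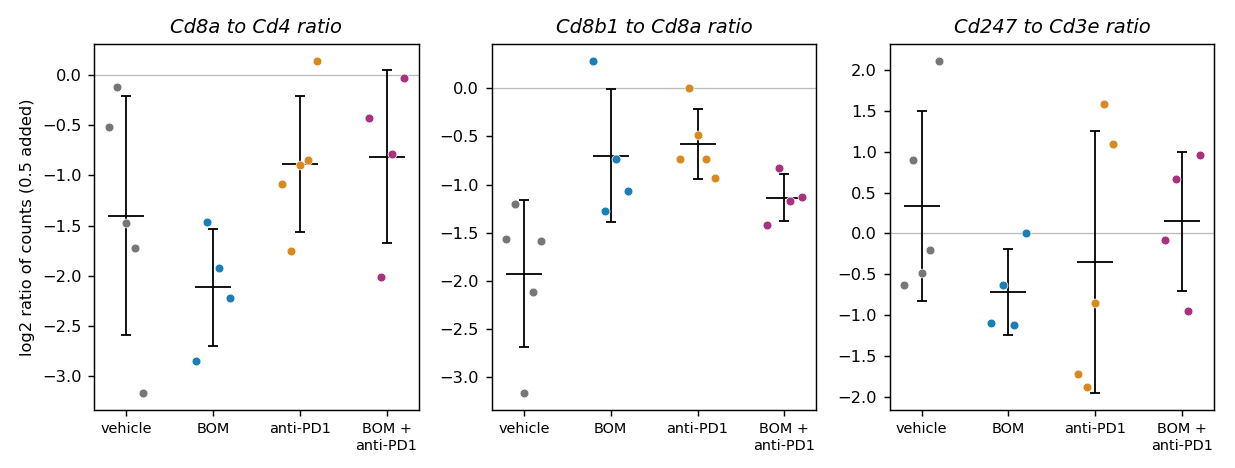
Log2 ratios of counts (0.5 added) for Cd8a to Cd4, Cd8b1 to Cd8a and Cd247 to Cd3e in each tumor (points), with the arm mean ± SD in black; each panel has its own linear axis. Anti-PD1 and vehicle tumors do not overlap for Cd8b1 to Cd8a, and BOM tumors have the lowest mean for Cd8a to Cd4.

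Genes that act with the receptor were examined from lists chosen by function. Their counts in the combination against anti-PD1 stand beside 15.8% of all genes called higher and 16.6% called lower, and nothing particular to a list is read from 1 or 2 calls. Of 20 genes that carry its signal, 14 were tested, and in the combination against anti-PD1 1 was higher and 1 lower, with a median difference of 0.87. Zap70, the kinase recruited to the zeta chain, was at 2.98 ± 1.22 CPM (SD, n = 4) with the combination and 1.30 ± 0.822 CPM (n = 5) with anti-PD1 (log2 difference 1.17 ± 0.44, adjusted p = 0.0474). The call was lost in 11 of the 18 fits that each left out 1 tumor (adjusted p 0.00842 to 0.177). It was also lost with no filter on low counts (adjusted p = 0.0737), with the replicate block (0.0554) and with the compared groups alone (0.0540). Rasgrp1, which activates RAS below the receptor, was at 4.96 ± 3.07 and 2.09 ± 1.75 CPM (adjusted p = 0.106).

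Skap1, an adaptor for integrin activation after receptor signalling, was the lower gene, at 7.67 ± 1.48 CPM with the combination and 14 ± 1.68 CPM with anti-PD1 (-0.90 ± 0.18, adjusted p = 0.00118). It was also lower with BOM (8.03 ± 1.62 CPM) and with the combination than with vehicle (13.5 ± 2.82 CPM; -0.75 and -0.81, adjusted p = 0.0104 and 0.0119). With the compared groups alone in the fit, the call for the combination against vehicle was lost (adjusted p = 0.0764). The cultured tumor cells held it too, at 2.37 to 6.98 CPM in the 10 d libraries. Those were the calls for this list against vehicle.

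Among 8 co-stimulatory receptors, 6 were tested and 1 was called. Cd28, the main co-stimulatory receptor of naive T cells, was at 2.51 ± 0.764 CPM with the combination and 0.761 ± 0.251 CPM with anti-PD1 (1.69 ± 0.48, adjusted p = 0.0116). Icos, its inducible relative, was at 1.59 ± 0.437 and 0.489 ± 0.555 CPM and missed the threshold (1.69 ± 0.71, adjusted p = 0.0749). Cd226, an activating receptor for nectin-like ligands, was at 1.62 ± 1.56 and 1.01 ± 1.12 CPM (adjusted p = 0.545). In the 10 d cultures Icos was at 0 in all 10 libraries and Cd28 at most 0.558 CPM.

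Of 8 homing and residence genes, 7 were tested and 2 were higher in the combination than with anti-PD1. Il7r, the receptor chain for interleukin-7 found on memory T cells, was at 7.33 ± 2.30 and 3.08 ± 1.47 CPM (1.23 ± 0.32, adjusted p = 0.00702). Cxcr6, a chemokine receptor of resident T cells, was at 3.23 ± 1.21 and 0.867 ± 0.707 CPM (1.87 ± 0.66, adjusted p = 0.0364), a call lost in 7 of the 18 fits that each left out 1 tumor and with the replicate block (adjusted p = 0.0561).

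The T cell transcription factors gave 1 gene higher and 1 lower of 8 tested (12 listed), and both were abundant in the cultures as well. Zbtb7b, which encodes ThPOK, the factor of the CD4 lineage, was at 145 ± 7.93 CPM with the combination and 103 ± 9.47 CPM with anti-PD1 (0.46 ± 0.09, adjusted p = 0.00115). In the 10 d cultures it was at 53.9 to 91.2 CPM. Lef1, a partner of TCF1 in early T cells, was lower, at 32.6 ± 3.71 and 45.8 ± 6.10 CPM (-0.52 ± 0.11, adjusted p = 0.00157), and its cultures held 31.6 to 49.4 CPM. Against vehicle, Zbtb7b was higher with BOM and with the combination (0.32 and 0.31, adjusted p = 0.0244 and 0.0370) and Lef1 lower with BOM (-0.36, adjusted p = 0.0332). Of the 18 fits that each left out 1 tumor, these 3 calls were lost in 4, 7 and 5, and all 3 were lost with the replicate number as a block (adjusted p = 0.0619, 0.0842 and 0.0853). With the compared groups alone, Zbtb7b lost its call with BOM (adjusted p = 0.0618) and with the combination (0.0787). With no filter on low counts, Zbtb7b with the combination (adjusted p = 0.0806) and Lef1 with BOM (0.0676) lost theirs. No gene of the 4 lists was called for anti-PD1 against vehicle, for the combination against BOM or for the interaction. The T cell receptor chains themselves (Trac, Trbc1, Trbc2 and the gamma and delta constant genes) were not analysed here.

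The cultures, which by label hold tumor cells alone, gave the background of each gene. Cd3d was at 0 in all 16 culture libraries, which allows up to 0.0452 CPM over the pooled 10 d libraries and 0.0529 CPM over the pooled 96 h libraries. Cd3g was at 0 in all 10 d libraries and had 1 count in the 96 h libraries. All 18 tumors were above the highest 10 d library for both genes. Cd3e had 8 counts over the 10 d libraries and 16 tumors were above the highest of them. Cd8b1 had 7 counts there, and 14 tumors were above.

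The other members had more signal in culture. Cd4 was at 0.279 to 1.87 CPM in the 10 d libraries, below 14 of the 18 tumors, and Cd8a at 0.457 to 0.958 CPM, below 11. Cd2 was at 0 to 1.40 CPM, below 8 tumors. Cd2 had 1.02 ± 0.325 CPM with DMSO (n = 3) and 0.162 CPM or less in each of the 4 libraries with BOM, on 0 to 10 counts a library and with no test. Cd247 was at 0.325 to 2.24 CPM in these cultures, and 2 tumors, both of the combination arm, were above the highest. Cd5 was at 0.140 to 3.43 CPM, and no tumor was above the highest. For Cd247, the anti-PD1 tumors at 0.143 to 0.968 CPM were thus within or below the range of the cultures.

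In the 96 h cultures, the same members were lower: Cd247 had 8 counts over 6 libraries, Cd4 7, Cd5 6, Cd2 5 and Cd8a 1, with Cd3d, Cd3e and Cd8b1 at 0. The 10 d libraries were made from total RNA and the 96 h and tumor libraries from polyadenylated RNA. This difference, the time in culture and the line cannot be told apart between the tables. Summed over the 9 genes, 12 of the 18 tumors were above the highest 10 d library (8.48 CPM) and all were above the highest 96 h library (0.904 CPM).

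**Figure D5:**
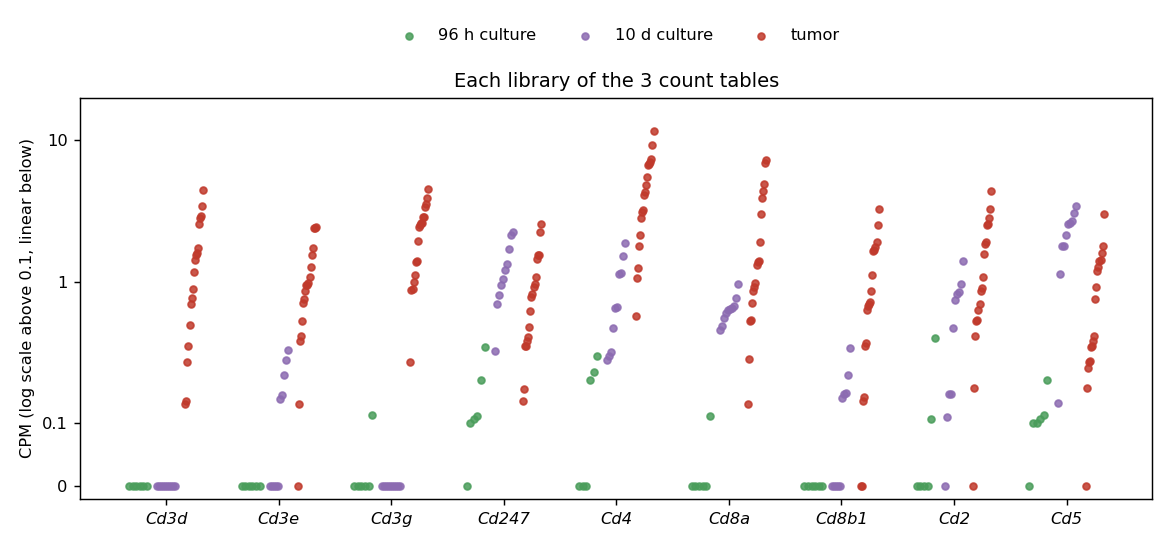
CPM of the 9 genes in every library of the 3 count tables (96 h cultures, 10 d cultures and tumors), sorted by value within a table, on an axis that is logarithmic above 0.1 CPM and linear below. Tumors lie above the cultures for Cd3d and Cd3g, and within or below the 10 d cultures for Cd5 and most Cd247 values.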

How the data were processed

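The 9 members and all gene lists were chosen with earlier results of these data known. Reads were counted per gene by the authors, and the deposited values are raw counts in 3 tables. Per the submitters' processing notes, STAR 2.7, Subread 2.0 with featureCounts, FastQC 0.11.9, bcl2fastq and the build mm10 were used. Settings are not given in the sources used here. Per the labels, the NEBNext Ultra kit was used, with polyadenylated RNA for tumors and 96 h cultures and total RNA for 10 d cultures. Libraries were mapped to groups by their labels.

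The tumor table (5.64 to 82.2 M counts per library, with M for 1000000) was filtered with filterByExpr (14332 of 29745 genes), scaled by TMM factors and fitted with edgeR 4.0.16 (R 4.3.3), whose quasi-likelihood F-test was used, in 1 fit over 18 tumors and 4 arms (14 residual degrees of freedom). A gene was called at a Benjamini-Hochberg adjusted p under 0.05 over all genes tested. CPM were computed on library totals, and log2 CPM with a prior count of 2. SEs were derived from the log2 fold change and the F statistic. The limits given for genes at 0 cover counting error only, whereas the SEs include the spread between tumors. The 3 count ratios were compared by exact two-sided permutation tests (scipy 1.17.1). Calls and fold changes of simulated counts were tested first. Changes were simulated only in genes whose mean CPM had a log2 of at least 2. Of the members only Cd4 reaches that level, so the check does not cover the low counts of the others.

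Alternatives were RLE factors, library size only, DESeq2 1.42.0, no filter, a filter at 1 CPM in 4 tumors, a replicate block, the compared groups alone, 2 counts added to ratios, each tumor left out in turn and, added after seeing the data, both deepest vehicle tumors left out and vehicle tumor 1 thinned. Between libraries of an arm, differences exceeded sampling noise (lowest chi-square per degree of freedom 3.38). Positions came from GENCODE M21, which held 98.3% of the gene identifiers. Genes named beyond the members were the 3 with the lowest p in the combination against vehicle from each pathway list, the leading gene of marker lists discussed, and the 10 genes most like the members. A few genes that this rule names are not reported here. Cd14, Pdgfra, Syp, Dll3, Nkx2-1, Uchl1, Pou2f1 and Gm48719 fall outside that rule and were added after seeing the data or the annotation.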

Additional observations from a re-analysis of the deposited data

Results flagged for a closer look

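In 48 groups checked (each member and each of the 3 ratios in each arm), the highest or lowest tumor stood far from the others of its arm in 3. For independent, normally distributed values, chance gives about 1 in 20 groups. The members are correlated and their counts low, so the rate here is not known. Cd2 in BOM tumor 3 was at 3.27 CPM, with a gap to the next tumor of 0.881 of the arm's whole range. Cd5 in the same tumor was at 3.0 CPM (0.951 of the range), and Cd5 in anti-PD1 tumor 1 was at 1.59 CPM (0.739 of the range). Both tumors were also the highest of their arms in summed macrophage markers, at 732 and 654 CPM, and the part of this in the Cd2 and Cd5 values was not tested.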

How the results depend on the processing

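The count of called members was 0, 0, 0, 3, 0 and 0 (BOM, anti-PD1 and combination against vehicle, combination against anti-PD1, combination against BOM, interaction) under RLE factors, library size only, DESeq2, both filters and thinning. For combination against anti-PD1 it was 2 with the replicate block, 2 with the compared groups alone, 2 to 3 with single tumors left out and 4 without vehicle tumors 1 and 2. With the compared groups alone the filter on low counts was rerun, and Cd247 did not pass it and was not tested. No member that was tested in that fit lost its call. With neither vehicle tumor 1 nor 2 it was 3 for combination against vehicle and 1 for BOM against vehicle (Cd8b1, 3.64). That fit called 1689 of 14450 genes higher for BOM against vehicle and 12.3% higher for combination against vehicle. For combination against anti-PD1, 15.8% of all genes were called higher in the main fit. The Cd8b1 value of 3.64 rests on 0, 1 and 0 counts in vehicle tumors 3, 4 and 5. Cd8a lost its call under the replicate block (2.04, adjusted p = 0.0888). The labels do not say that replicate numbers pair tumors, and whether same-numbered tumors share a batch was not tested. After removal of arm means, correlations of same-numbered tumors across arms had a median of -0.08 (25 pairs, -0.36 to 0.51). The other 96 pairs had a median of 0.01 (-0.42 to 0.53).

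Of 1429 single-member values, 34 changed sign. Members that did not pass the filter rerun on the compared groups alone gave no value there. Without vehicle tumors 1 and 2, BOM against vehicle gave 0.73 (Cd3d), 1.33 (Cd8a), 3.64 (Cd8b1) and 0.66 (Cd2). Anti-PD1 against vehicle gave 0.54 (Cd3d), 0.36 (Cd3e), 0.24 (Cd3g), 0.79 (Cd8a), 3.23 (Cd8b1), 0.36 (Cd2) and 0.21 (Cd5), and the Cd8b1 interaction was -2.0. Cd5 in BOM against vehicle was -0.12 with the replicate block and Cd8b1 was 0.088 with DESeq2. The Cd8a to Cd4 difference between combination and anti-PD1 was -0.040 with 2 counts added. With single tumors left out, BOM against vehicle ran from -1.44 to 0.29 (Cd3d), -0.57 to 0.87 (Cd3e), -0.74 to 0.35 (Cd8b1), -1.14 to 0.17 (Cd2) and -1.61 to 0.74 (Cd5). Anti-PD1 against vehicle ran from -1.06 to 0.11 (Cd3d), -1.24 to 0.22 (Cd3e) and -0.62 to 0.018 (Cd3g). Cd4 in combination against BOM ran from -0.054 to 0.64, the Cd8a to Cd4 ratio in combination against anti-PD1 from -0.19 to 0.47 and the Cd247 to Cd3e ratio in combination against vehicle from -0.46 to 0.26. None of these passed its test apart from the Cd8b1 value of 3.64, which rests on the few counts given above, and the cause of each change was not tested.

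Over all genes, combination against vehicle called 1539, 83 with the compared groups alone, 607 to 2691 with single tumors left out and 3284 without vehicle tumors 1 and 2. BOM against vehicle called 2082, 1385 with the compared groups alone, 1210 to 2971 with single tumors left out and 3363 without vehicle tumors 1 and 2. Anti-PD1 against vehicle called 0 with edgeR (1411 at an unadjusted p under 0.05) and 86 with DESeq2, the interaction 0 (1258) and 6, and combination against BOM 1 and 8. Depth limits the low members most, since 1 to 7 counts stand behind each anti-PD1 value of Cd247.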

Other observations

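Markers of other cells that enter no comparison above were summed per tumor. Endothelial markers, led by Pecam1, summed to 43.7 to 134 CPM over all tumors. Plasma cell markers, led by Sdc1, summed to 71.3 to 122 CPM and immature T cell markers, led by Cd1d1, to 20 to 38.2 CPM. Neutrophil markers, led by Csf3r, reached at most 9.20 CPM, markers of lymphoid stroma and high endothelial venules, led by Cxcl13, at most 5.21 CPM, and skin markers, led by Krt10, at most 10.7 CPM. B cell markers were led by Cd22, natural killer cell markers by Klre1 and skeletal muscle markers by Acta1. Of the markers tested, 1 of 6 endothelial, 1 of 3 plasma cell and 1 of 2 immature T cell genes were higher with the combination than with anti-PD1. Of all genes, 15.8% were called higher there. The 1 lymphoid stroma marker tested was lower with the combination than with vehicle, where 10.7% of all genes were called in either direction.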
